A study of Mus musculus with 12 samples.

Results

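The circadian clock genes described here are Arntl (Bmal1), Clock, Npas2, Per1, Per2, Per3, Nr1d1, Nr1d2, Dbp and Tef, measured in mouse heart. They were taken as all non-control probes that carry these names on the array, which gave 25 probes of 56556 and 10 genes of 36981. The study profiled heart RNA on 12 Agilent arrays, 1 per sample, in 4 groups of 3. TG+MI hearts carried a transgene for CCRR, a long non-coding RNA, and had undergone myocardial infarction. WT+MI hearts were wild-type (strain C57/BL6) and infarcted. TG hearts carried the CCRR transgene without infarction. WT hearts were wild-type (C57/BL6) without infarction. Not stated in the material used here are the strain of the transgenic mice, the promoter of the transgene, the animals' ages, the time since infarction and any surgery on the hearts without infarction. All mice were kept under alternating 12 h of day and night, per the labels, but the hour at which each heart was taken is likewise unstated, and it cannot be told apart from the groups. Whether the 3 samples of a group are 3 animals is also unstated, so the spread behind each p-value is that between samples and may be technical.

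The mammalian clock is a feedback loop of transcription. Arntl pairs with Clock, or with its relative Npas2, and the pair binds E-boxes in the promoters of the Per genes, the Nr1d genes, Dbp and Tef. Per proteins, together with cryptochromes, block that pair, while Nr1d1 and Nr1d2 (REV-ERB alpha and beta) repress Arntl through ROR response elements (ROREs). Dbp and Tef, with Hlf, are PAR bZIP factors that drive output genes through D-boxes. In heart muscle the loop runs with a daily rhythm, and Arntl peaks at about the opposite time of day from the Nr1d genes and Dbp. Per1 is also induced directly by glucocorticoids and by CREB signalling, and Per2 has been described as a target of both.

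Because the members are tied to each other through short promoter elements, promoter sequence was searched for them. The sequences are those of RefSeq on GRCm38.p6, in windows that run 250 bases before and 50 bases after each annotated start. The motifs searched on both strands were the E-box CACGTG, the non-canonical E-box CACGTT, which appears below as its other strand, the D-box (TTATGTAA or TTACGTAA), and the RORE by its name. None of these motifs overlaps another in the windows below. In all, 14 windows of 9 members were searched and 5 members held a motif. An E-box was found in 7.15% of all 32851 windows of this length, the non-canonical E-box in 4.68%, the D-box in 1.06% and the RORE in 0.384%. No window of Dbp, Nr1d2, Clock or Npas2 held any of these motifs, that of Per3 held no E-box of either form, and Per2 had no window. The search thus did not find each element that the loop described above would call for. Only the stretches that carry a motif are shown, and capitals mark the motif.
Per1 (chr11:69098699-69098948, + strand): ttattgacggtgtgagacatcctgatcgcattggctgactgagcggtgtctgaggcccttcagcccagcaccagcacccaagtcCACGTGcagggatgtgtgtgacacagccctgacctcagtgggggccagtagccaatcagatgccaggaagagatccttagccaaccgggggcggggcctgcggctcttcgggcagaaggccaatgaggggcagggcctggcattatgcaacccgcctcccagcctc
Per3 (chr4:151044666-151044915, - strand): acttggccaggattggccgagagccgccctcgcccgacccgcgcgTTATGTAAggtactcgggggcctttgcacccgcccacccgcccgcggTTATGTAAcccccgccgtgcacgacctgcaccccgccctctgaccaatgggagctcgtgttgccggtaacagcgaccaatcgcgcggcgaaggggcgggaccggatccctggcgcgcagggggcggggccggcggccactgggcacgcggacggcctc
Nr1d1 (chr11:98775378-98775627, - strand): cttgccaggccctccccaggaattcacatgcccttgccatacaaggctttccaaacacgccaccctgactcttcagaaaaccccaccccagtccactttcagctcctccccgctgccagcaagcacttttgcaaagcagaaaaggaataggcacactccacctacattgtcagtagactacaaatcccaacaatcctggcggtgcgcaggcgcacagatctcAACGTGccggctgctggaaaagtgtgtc
Tef (chr15:81802423-81802672, + strand): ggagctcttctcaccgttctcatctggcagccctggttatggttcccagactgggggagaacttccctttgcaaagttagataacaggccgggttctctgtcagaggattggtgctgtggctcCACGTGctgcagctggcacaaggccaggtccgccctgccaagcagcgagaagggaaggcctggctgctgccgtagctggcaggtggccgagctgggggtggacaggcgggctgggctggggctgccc
Tef, second start (chr15:81811164-81811413, + strand): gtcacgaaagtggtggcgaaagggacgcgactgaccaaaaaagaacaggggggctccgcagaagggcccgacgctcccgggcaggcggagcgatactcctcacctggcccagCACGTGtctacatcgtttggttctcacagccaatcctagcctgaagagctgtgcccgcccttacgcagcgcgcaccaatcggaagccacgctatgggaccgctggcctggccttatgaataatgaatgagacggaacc
Arntl (chr7:113207528-113207557, + strand): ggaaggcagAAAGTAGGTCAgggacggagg
With the start counted as base 0, the E-box of Per1 runs from -166 to -161, and those of the Tef windows from -127 to -122 and from -138 to -133. Per3 holds a pair of D-boxes, from -205 to -198 and from -158 to -151. The non-canonical E-box of Nr1d1 runs from -28 to -23. In Arntl the RORE lies after the start, from 26 to 36, and is shown with its flanks only. These matches describe letters in the windows and are not evidence of binding in these hearts.

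All levels below are log2 of the deposited processed signal minus the 75th percentile of the same array, so 0 marks that percentile. A gene is represented by its brightest probe, differences are given ± the standard error of the limma fit over the 12 arrays, and a difference passed where its Benjamini-Hochberg adjusted p over all 19761 genes tested was below 0.05. Of the 10 members, 9 passed the filter on dim probes. Npas2, measured by 1 probe, was not well above background on any of the 12 arrays and was not tested. The 75th percentile of the signal lay between 198 and 374 per array, and 49.3% to 57.2% of the non-control spots were well above background. The number of arrays limits the precision. Slide 1 held the WT and WT+MI arrays with TG 1 and TG 2, and slide 2 held TG 3 with the TG+MI arrays. Probe positions are those of the files, on mm9; exon and UTR placement was not analysed here.

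**Figure D1:**
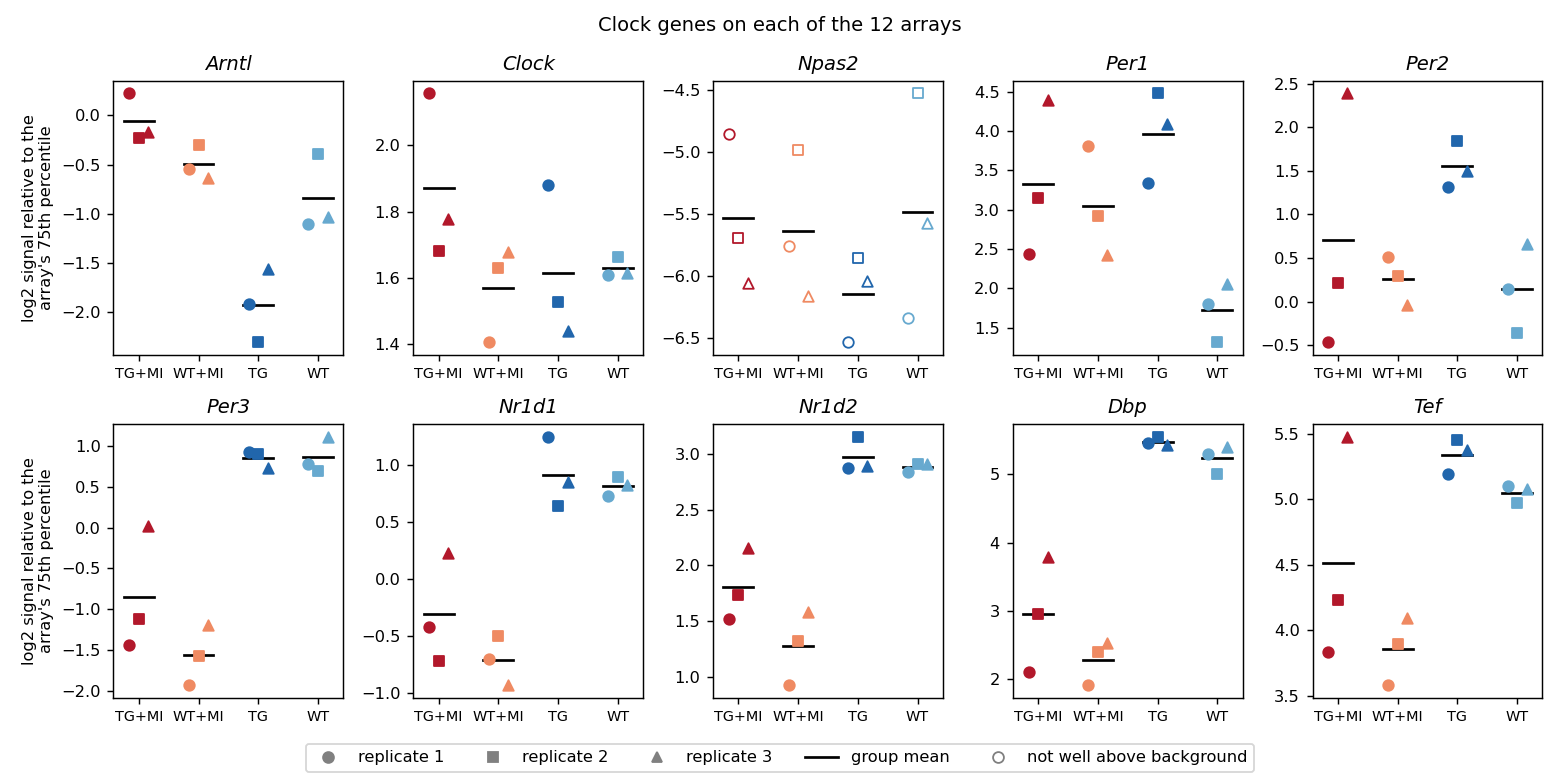
Level of each clock gene on each of the 12 arrays, on the y axis as log2 signal relative to the array's 75th percentile, by group on the x axis; symbols are the replicates, bars the group means, and open symbols probes not well above background. Dbp, Per3, Nr1d1 and Nr1d2 lie lower in both infarcted groups, Per1 is lowest in WT hearts, and Arntl is lowest in TG hearts.

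Dbp, Per3, Nr1d1 and Nr1d2 were lower after infarction in both genotypes, and Tef was lower in wild-type hearts. In WT+MI against WT, 6 of the 9 tested members passed: Dbp, Per3, Nr1d2, Nr1d1 and Tef were lower and Per1 was higher, where 48.1% of all genes tested passed in either direction, 29.6% lower and 18.5% higher. For TG+MI against TG, 5 members passed: Dbp, Per3, Nr1d1 and Nr1d2 were lower and Arntl was higher, against 8.82% of all genes in either direction, 3.75% lower and 5.07% higher. The median difference of the 9 members was -1.20 in WT+MI against WT, beside -0.15 over all genes tested. The corresponding median in TG+MI against TG was -0.84, beside 0.03. The level ranges of the groups did not overlap for 6 of 9 members in WT+MI against WT, where the same held for 63.8% of all genes, a share close to that of the members. Between TG+MI and TG hearts they did not overlap for 5 of 9 members and for 30.3% of all genes.

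**Figure D2:**
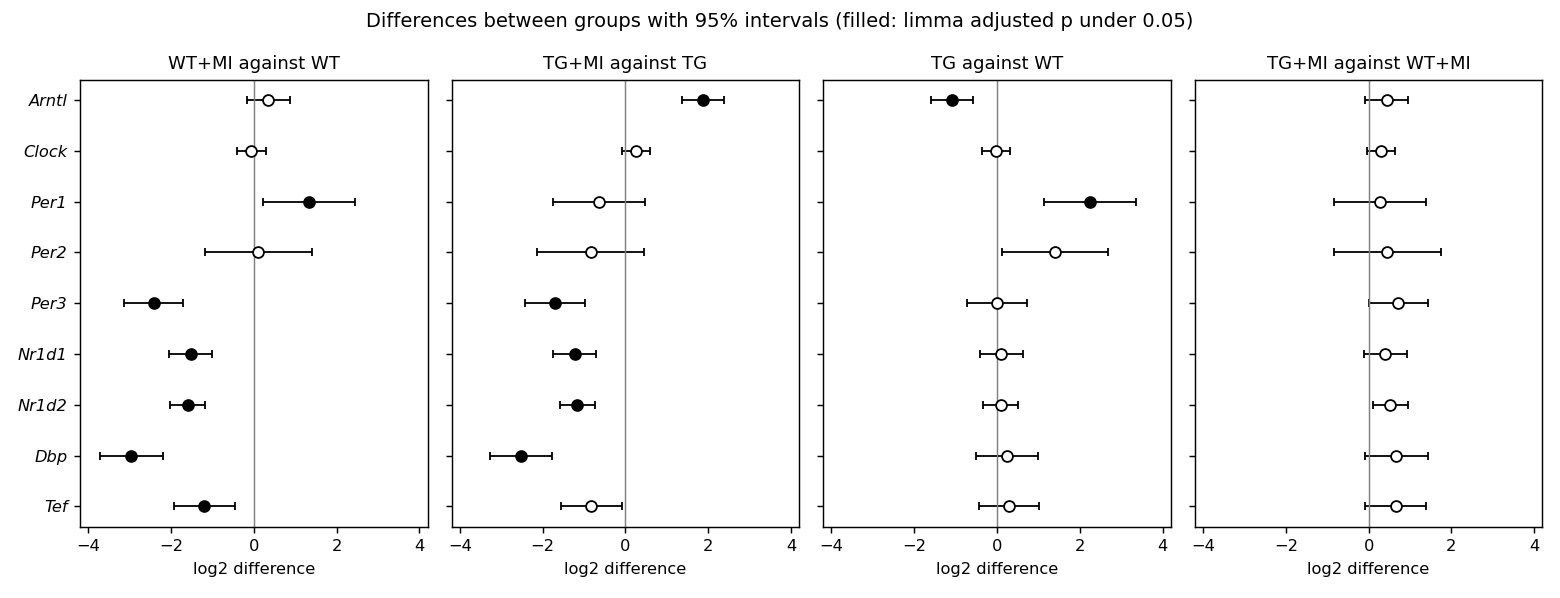
Differences between groups for the 9 tested clock genes, in log2 units on the x axis with 95% intervals, 1 panel per comparison; filled points passed the adjusted p threshold. Dbp shows the largest drop of these genes in both infarction comparisons (-2.96 and -2.53), and no point is filled in TG+MI against WT+MI.

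Dbp, a PAR bZIP activator whose transcript is among the most strongly cycling in many tissues, showed the largest differences of the members. Its probe lies at chr7:52965265-52965324 (+ strand). It stood at 2.10, 2.95 and 3.79 in TG+MI hearts and at 1.91, 2.39 and 2.53 in WT+MI hearts. The TG values were 5.45, 5.55 and 5.43 and the WT values 5.30, 5.01 and 5.40. All 6 infarcted hearts thus lay below all 6 hearts without infarction. The difference was -2.96 ± 0.34 in WT+MI against WT (7.79-fold lower, adjusted p = 0.000212) and -2.53 ± 0.34 in TG+MI against TG (5.78-fold lower, adjusted p = 0.00266). Among genes with lower values, Dbp ranked 27 by size of difference in the wild-type comparison and 58 in the transgenic one.

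Tef, the second PAR bZIP member, has its brightest probe at chr15:81657221-81657280 (+ strand). It had levels of 3.83, 4.23 and 5.48 in TG+MI hearts and 3.58, 3.90 and 4.09 in WT+MI hearts. The TG values were 5.19, 5.45 and 5.37, and the WT values 5.10, 4.97 and 5.08. TG+MI 3 lay above all TG hearts, whereas the WT+MI hearts lay below all WT hearts. Tef was lower in WT+MI against WT (-1.20 ± 0.33, adjusted p = 0.0135), but not past the threshold without WT+MI 1 (adjusted p = 0.0524). Its difference between TG+MI and TG hearts was -0.82 ± 0.33 (adjusted p = 0.151), and without TG+MI 3 it was -1.30 (adjusted p = 0.00315).

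The Per genes, repressors of the Arntl and Clock pair, did not move together. Per3 (probe at chr4:150385608-150385667, - strand) followed Dbp. Its level was -1.44, -1.12 and 0.02 in TG+MI hearts and -1.93, -1.57 and -1.19 in WT+MI hearts. Hearts without infarction had 0.92, 0.91 and 0.73 in the TG group and 0.77, 0.69 and 1.12 in the WT group. Infarcted and non-infarcted hearts did not overlap. Per3 was lower by -2.43 ± 0.33 in WT+MI against WT (5.37-fold, adjusted p = 0.000412) and by -1.70 ± 0.33 in TG+MI against TG (3.25-fold, adjusted p = 0.0123). Without TG+MI 2 the adjusted p of the transgenic comparison was 0.0528.

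Per1 (probe at chr11:68923364-68923423, + strand), which is also an immediate early gene in many cell types, was higher in WT+MI than in WT hearts and higher in TG than in WT hearts. Its level was 2.44, 3.15 and 4.40 in TG+MI hearts, 3.82, 2.92 and 2.42 in WT+MI hearts, and 3.34, 4.48 and 4.09 in TG hearts. WT hearts had 1.80, 1.31 and 2.05, below every heart of the other groups. The difference was 1.33 ± 0.50 in WT+MI against WT (2.51-fold higher, adjusted p = 0.0496), close to the threshold. It no longer passed in 8 of the 12 fits that left out an array (WT 1, WT 2, WT 3, WT+MI 1, WT+MI 2, TG 2, TG 3 or TG+MI 2), with adjusted p up to 0.182 and a difference of 0.95 without WT+MI 1. The TG against WT comparison, which shares the WT arrays with it, gave 2.25 ± 0.50 (4.75-fold higher, adjusted p = 0.0461). That call was lost in 8 of 12 such fits (WT 1, WT 2, WT 3, WT+MI 2, TG 1, TG 2, TG 3 or TG+MI 2), with differences between 1.99 and 2.56 and adjusted p up to 0.154. TG+MI differed from TG by -0.64 ± 0.50 (adjusted p = 0.462).

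Per2 (probe at chr1:93312595-93312654, - strand), which like Per1 represses the Arntl and Clock pair, passed in no comparison. It had levels of -0.47, 0.21 and 2.39 in TG+MI hearts, 0.51, 0.30 and -0.04 in WT+MI hearts, 1.31, 1.84 and 1.49 in TG hearts, and 0.15, -0.36 and 0.66 in WT hearts. TG hearts lay above all WT and WT+MI hearts, and TG+MI 3 lay above all TG hearts. The difference in TG against WT was 1.40 ± 0.58 (adjusted p = 0.239). Without TG+MI 3 that comparison had an adjusted p of 0.0279, and TG+MI against TG gave -1.68 (adjusted p = 0.0122) in place of -0.84 (adjusted p = 0.402).

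Nr1d1 and Nr1d2, nuclear receptors that repress Arntl, were lower after infarction in both genotypes. Nr1d1 is measured by 1 probe that spans chr11:98630526-98631028 (- strand). It stood at -0.43, -0.72 and 0.23 in TG+MI hearts and at -0.70, -0.50 and -0.94 in WT+MI hearts. TG hearts had 1.25, 0.64 and 0.85 and WT hearts 0.73, 0.90 and 0.82. The difference was -1.53 ± 0.23 in WT+MI against WT (2.89-fold lower, adjusted p = 0.000723) and -1.22 ± 0.23 in TG+MI against TG (2.33-fold lower, adjusted p = 0.0125). With the TG+MI and TG arrays alone in the fit, the adjusted p was 0.0719 for Nr1d1 and 0.0609 for Per3. Infarcted hearts lay below the others for both receptors.

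Nr1d2 (probe at chr14:19036859-19036918, - strand) had 1.53, 1.74 and 2.16 in TG+MI hearts, 0.93, 1.33 and 1.58 in WT+MI hearts, 2.87, 3.15 and 2.89 in TG hearts, and 2.84, 2.90 and 2.91 in WT hearts. The 3 WT hearts spanned 0.07 and the TG hearts 0.28, so infarcted and other hearts were far apart relative to the spread without infarction. The difference was -1.60 ± 0.19 in WT+MI against WT (3.04-fold lower, adjusted p = 0.000242) and -1.16 ± 0.19 in TG+MI against TG (2.24-fold lower, adjusted p = 0.00625). The size of the drop did not pass a test of difference between genotypes for any of Dbp, Per3, Tef, Nr1d1 and Nr1d2, whose interaction values lay between 0.31 and 0.72.

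Arntl, the activator that Nr1d1 and Nr1d2 repress, showed the opposite direction. Its brightest probe lies at chr7:120456978-120457037 (+ strand). The level was 0.22, -0.23 and -0.16 in TG+MI hearts, -0.55, -0.30 and -0.64 in WT+MI hearts, -1.91, -2.31 and -1.57 in TG hearts, and -1.10, -0.39 and -1.03 in WT hearts. TG hearts lay below all others and TG+MI hearts above all others, while the WT+MI and WT ranges overlapped. TG+MI hearts exceeded TG hearts by 1.87 ± 0.23 (3.66-fold, adjusted p = 0.00174). WT+MI and WT hearts differed by 0.35 ± 0.23 (adjusted p = 0.238; 95% interval -0.17 to 0.86).

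Between TG and WT hearts, Arntl was lower by -1.09 ± 0.23 (2.12-fold, adjusted p = 0.0389). The call was lost in 8 of the 12 fits that left out an array (WT 1, WT 2, WT 3, WT+MI 2, WT+MI 3, TG 1, TG 2 or TG+MI 2), with differences between -1.27 and -0.86 and adjusted p up to 0.123. With the TG and WT arrays alone in the fit, Arntl did not pass (adjusted p = 0.0717), while Per2 did (adjusted p = 0.0471). The interaction, which is the infarction difference in TG hearts minus that in WT hearts, was 1.52 ± 0.33 for Arntl (adjusted p = 0.037). It was lost in 7 of 12 such fits (WT 1, WT 2, WT 3, WT+MI 1, TG 1, TG 2 or TG+MI 1), with values between 1.30 and 1.71 and adjusted p up to 0.0811. Arntl was the 1 member of 9 that passed it, where 7.93% of all genes did, 4.91% with a positive and 3.02% with a negative sign. For Per1 the interaction was -1.97 ± 0.71 (adjusted p = 0.0947), with TG higher than WT and both infarcted groups in between.

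Clock, the partner of Arntl, is measured by its brightest probe at chr5:76639992-76640051 (- strand). It stood at 2.16, 1.68 and 1.78 in TG+MI hearts, 1.41, 1.63 and 1.68 in WT+MI hearts, 1.88, 1.53 and 1.44 in TG hearts, and 1.61, 1.66 and 1.62 in WT hearts. Its range over the 12 arrays was 0.75, the smallest of the 9 members. No difference in Clock passed; WT+MI against WT gave -0.06 ± 0.15 (adjusted p = 0.771) and TG+MI against TG 0.26 ± 0.15 (adjusted p = 0.325).

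Without infarction, the 2 genotypes differed at 2 members. Per1 was higher and Arntl lower in TG against WT, where 2.5% of all genes passed in either direction, 1.36% higher and 1.14% lower. The other 7 tested members did not pass. Of these, Dbp (0.24), Tef (0.29), Nr1d1 (0.10), Nr1d2 (0.09), Per3 (-0.01) and Clock (-0.01) had differences under 0.3 in size. Their 95% intervals reached 0.99 for Dbp, 1.02 for Tef and 0.71 for Per3, so underlying differences up to that size are not excluded. The TG and WT ranges did not overlap for 5 of 9 members (Arntl, Per1, Per2, Dbp and Tef), where the same held for 34.4% of all genes. The genotypes' strains are labelled only for the wild-type animals, so strain and transgene cannot be told apart.

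After infarction, the 2 genotypes did not differ at any tested member past the threshold. Of the 9 members, 0 passed in TG+MI against WT+MI by limma's adjusted p, while 1 (Nr1d2) had an unadjusted p below 0.05, where 10.5% of all genes passed, 5.97% higher and 4.5% lower. The differences of all 9 members were above 0, between 0.27 (Per1) and 0.72 (Per3). Nr1d2 came closest, with 0.53 ± 0.19 (adjusted p = 0.0876). Without TG+MI 3 the differences of Per1 and Per2 were -0.26 and -0.38. TG+MI and WT+MI hearts share no slide, so slide and genotype cannot be told apart here. Ranges did not overlap for 2 of 9 members, Arntl and Clock, against 33.2% of all genes.

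**Figure D3:**
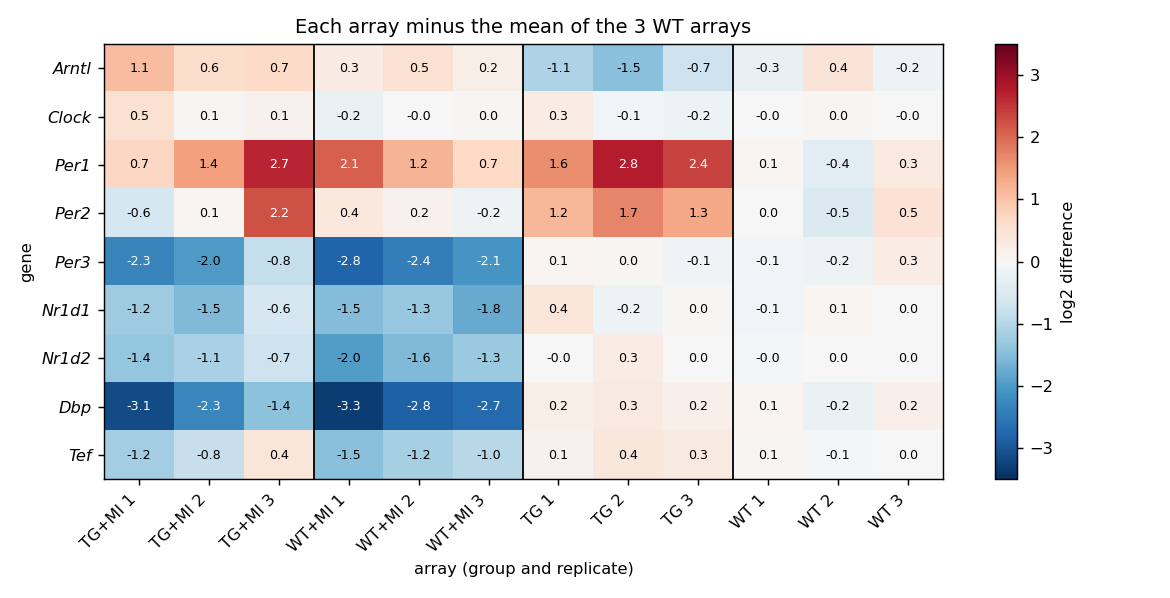
Each array's level minus the mean of the 3 WT arrays, in log2 units, for the 9 tested clock genes (rows) and the 12 arrays (columns, grouped by vertical lines). Dbp, Per3 and the Nr1d genes are negative on all 6 infarcted arrays, while TG+MI 3 is closer to 0 than TG+MI 1 and 2 for Dbp and Per3 and is positive for Tef.

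Array by array, 1 heart stood apart within its group. TG+MI 3 was the highest of the TG+MI hearts for 7 of the 9 tested members (Dbp, Tef, Per1, Per2, Per3, Nr1d1 and Nr1d2) and the lowest for 0. It lay 2.17 above the next TG+MI heart for Per2, 1.25 above it for Per1, 1.24 for Tef and 1.14 for Per3. The clock-controlled list described below summed to 707 in TG+MI 3, against 342 in TG+MI 1 and 316 in TG+MI 2, as linear signal relative to the 75th percentile. The glucocorticoid-responsive list summed to 435 in TG+MI 3, against 227 and 282 in TG+MI 1 and 2, and the CREB-responsive list to 78.7, against 38.6 and 49.9. A few bright genes weigh heavily in 2 of these sums. Mt2 was at 182, 235 and 311 in TG+MI 1, 2 and 3. In TG+MI 3 Tcap was at 310 and Dgat2 at 142 of the clock-controlled sum. Cell markers also differed in TG+MI 3: its macrophage markers summed to 12.9, the lowest of the 12 arrays, against 22.0 and 25.7 in TG+MI 1 and 2, and its atrial markers to 52.2, against 119 and 219. The atrial sums of TG+MI hearts mostly follow Nppa, which ranged there from 5.66 to 7.34 on the log2 scale. The other atrial markers were at most 4.71 in these hearts. The part of these differences in the clock gene levels of this heart was not tested. No other heart was the highest of its group for more than 5 members. TG+MI 1 was the lowest of its group for 6 members, and WT 2 and WT+MI 1 were each the lowest of theirs for 5. Without TG+MI 3, 7 of 9 members passed in TG+MI against TG, with Tef and Per2 added, and 3 passed in TG against WT, with Per2 added.

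The slide also moves with the groups. On slide 2, TG 3 had Dbp at 5.43 and Per3 at 0.73, both above every TG+MI heart. With slide as a block, TG+MI against TG rests on TG 3 alone. There 0 members passed and 5 had an unadjusted p below 0.05: Arntl was 1.51 (adjusted p = 0.0715) and Dbp -2.48 (adjusted p = 0.0771). Nr1d2 was -1.08 (adjusted p = 0.145), Nr1d1 -1.16 (adjusted p = 0.201) and Per3 -1.58 (adjusted p = 0.206). The estimates of these 5 genes lay between 0.81 and 0.98 of those without the block. Using slide 1 alone, TG against WT gave -1.27 for Arntl (adjusted p = 0.0486) and 2.19 for Per1 (adjusted p = 0.0709). WT+MI against WT lies within slide 1, and the 6 members that passed also passed on slide 1 alone. With slide as a block over all arrays, Per1 did not pass in that comparison (1.33, adjusted p = 0.064).

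**Figure D4:**
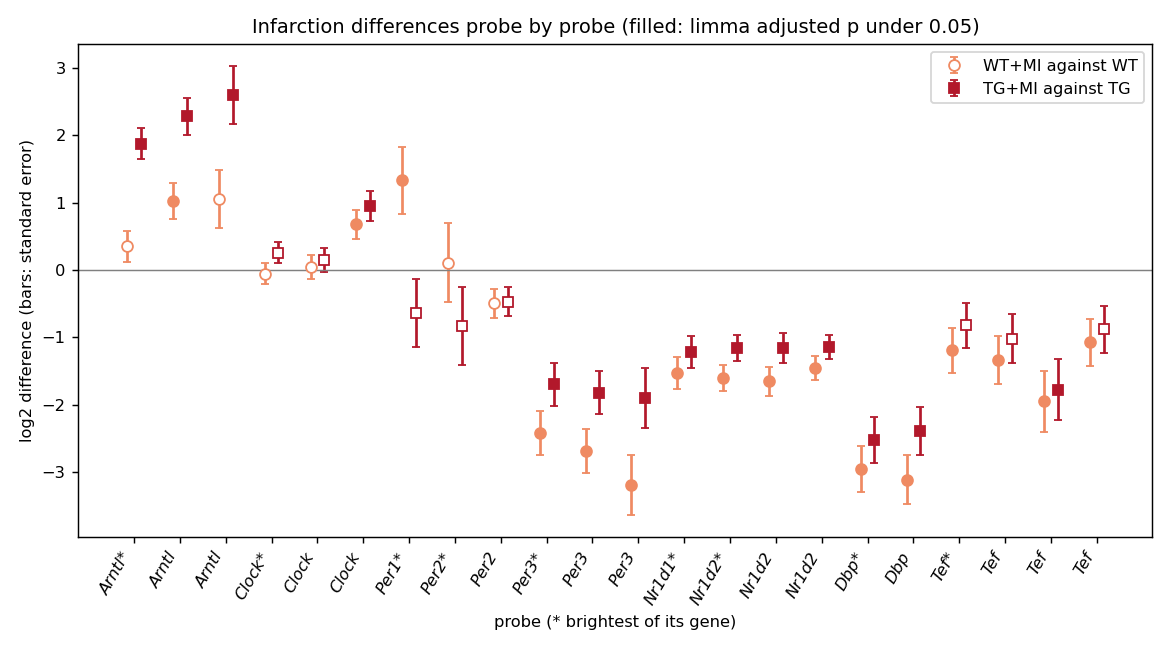
Infarction differences of each tested probe of the clock genes, in log2 units with standard errors on the y axis, with the brightest probe of a gene starred on the x axis; squares are TG+MI against TG, circles WT+MI against WT, and filled symbols passed in a fit across all probes. All probes of Dbp, Per3 and Nr1d2 lie below 0 and are filled in both comparisons, and the probes of Clock disagree. A probe each of Per2, Per3 and Tef, not well above background on any WT+MI array, is drawn at its measured value.

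Where a gene has several probes, they were compared in a fit across all 29870 probes that passed the filter. Both probes of Dbp, 2 of Per3 and all 3 of Nr1d2 stood well above background on each of the 12 arrays, and they were lower and passed in both infarction comparisons. For Per3 these 2 gave -2.69 and -2.43 in WT+MI against WT. The remaining Per3 probe was well above background on 0 of 3 WT+MI arrays, 1 of 3 TG+MI arrays and all TG and WT arrays, so it passed the filter through the hearts without infarction. With the lowest signal well above background on each array in place of a dimmer value, its WT+MI mean lay 2.05-fold below its WT mean. That signal is not a strict limit: on WT+MI 2 it was -3.87, and a Ciart probe at -3.82 was not well above background. The fold is thus approximate. For this Per3 probe the adjusted p of 0.000484 is from the limma fit on the measured values and is not a test of that fold. Of the 4 Tef probes, 3 were well above background throughout and passed as lower in WT+MI against WT, from -1.95 to -1.20. The dimmest was not so on any WT+MI array, and by the same replacement WT+MI lay about 1.84-fold below WT for it. Its adjusted p of 0.028 is likewise from the limma fit on the measured values, not a test of that fold. Between TG+MI and TG hearts 1 of the 4 passed, the probe at chr15:81647233-81647292, with -1.78 ± 0.45 (adjusted p = 0.0374).

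The probes of Arntl differed in what they showed in wild-type hearts. All 3 were higher in TG+MI than in TG hearts, by 1.87, 2.28 and 2.59, and passed. In WT+MI against WT, the probe that spans chr7:120435023-120436706 passed with 1.03 ± 0.27 (adjusted p = 0.0102), the probe at chr7:120439030-120439089 gave 1.05 ± 0.43 (adjusted p = 0.0665) and the brightest gave 0.35. The same 2 dimmer probes gave, in TG against WT, -0.98 (adjusted p = 0.0879) and -1.22 (adjusted p = 0.172). Each of these 2 was well above background on 1 of 3 TG arrays and on all infarcted arrays, so 2 of the 3 TG values of each were not well above background. The differences of 2.28 and 2.59 rest on those TG values and are not exact sizes. The probe at chr7:120439030-120439089 was well above background on 2 of 3 WT arrays, so it passed the filter through the infarcted hearts alone.

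A probe of Clock also disagreed with the others of its gene. The probe at chr5:76664578-76664637 was higher in WT+MI against WT (0.68 ± 0.22, adjusted p = 0.0279) and in TG+MI against TG (0.95 ± 0.22, adjusted p = 0.0264). The remaining pair of tested Clock probes lay between -0.06 and 0.26 in those comparisons and did not pass. The second probe of Per2 was not well above background on any WT+MI array, and no fold is given for it. A probe each of Clock and Per1 was not well above background on any array.

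Among the other genes of the clock, Hlf was lower and Nfil3 higher in both infarction comparisons. The list of 17 further clock genes had 15 tested. In WT+MI against WT 3 were higher and 4 lower, with a list median of -0.18, where 48.1% of all genes passed and their median was -0.15, a share and a median close to those of the list. Nfil3, a repressor that binds D-boxes, was higher (1.27 ± 0.27, adjusted p = 0.00368), as was the repressor Cry1 (1.23 ± 0.35, adjusted p = 0.0146). Hlf, a further PAR bZIP factor, was lower (-2.20 ± 0.34, adjusted p = 0.00077), as was Btrc, which takes part in Per protein turnover (-1.0 ± 0.11, adjusted p = 0.000171). Cry1 was well above background on 3 of 3 WT+MI and TG+MI arrays, 2 of 3 WT arrays and 1 of 3 TG arrays, so it passed the filter through the infarcted hearts alone. Its WT levels of -4.48, -4.32 and -4.14 lay near the lowest signals well above background on those arrays (-4.54, -4.23 and -4.19). Its difference is therefore not an exact size.

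Of the same 15 genes, 2 were higher and 2 lower in TG+MI against TG, with a median of 0.01, beside 8.82% and 0.03 over all genes. Nfil3 (1.57 ± 0.27, adjusted p = 0.00815) and Timeless (0.63 ± 0.16, adjusted p = 0.0349) were higher. Hlf (-1.56 ± 0.34, adjusted p = 0.0208) and Btrc (-0.47 ± 0.11, adjusted p = 0.0261) were lower. Hlf stood at -1.49, -1.63 and -0.65 in TG+MI hearts and -2.88, -1.62 and -1.73 in WT+MI hearts. TG hearts had 0.33, 0.55 and 0.02 and WT hearts 0.12, -0.05 and 0.30, without overlap between infarcted and other hearts. Between TG and WT hearts 0 of the 15 passed by limma's adjusted p, beside 2.5% of all genes. In that comparison 2 (Ciart and Timeless) had an unadjusted p below 0.05. For TG+MI against WT+MI 1 passed (Btrc, 0.49 ± 0.11, adjusted p = 0.0318), beside 10.5% of all genes.

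Of 12 genes described as clock-controlled in heart or other tissues, all were tested. In WT+MI against WT 2 were higher and 5 lower (median -0.52), again beside 48.1% of all genes. The largest differences among them were those of Cdkn1a, a cell cycle inhibitor (3.13 ± 0.50, adjusted p = 0.000915), and Kcnip2, a subunit of the transient outward potassium channel (-2.49 ± 0.34, adjusted p = 0.000421). Pdk4, which restrains glucose oxidation, was higher (1.45 ± 0.43, adjusted p = 0.0175), and Klf15, a regulator of cardiac metabolism, was lower (-1.42 ± 0.34, adjusted p = 0.00634). Between TG+MI and TG hearts 2 were higher, where 5.07% of all genes were. These were Cdkn1a (1.95 ± 0.50, adjusted p = 0.04) and the ketone enzyme Bdh1 (1.54 ± 0.38, adjusted p = 0.0319). In that comparison 0 were lower by limma's adjusted p, beside 3.75% of all genes, and 2 at an unadjusted p below 0.05. Of the 12, Pdk4 was the 1 gene that passed in TG against WT (2.13 ± 0.43, adjusted p = 0.0303), where 2.5% of all genes did. After infarction, 3 were higher in TG+MI against WT+MI, where 5.97% of all genes were: Kcnip2 (1.42 ± 0.34, adjusted p = 0.0341), Klf15 (1.21 ± 0.34, adjusted p = 0.0476) and Dgat2, a triglyceride enzyme (1.02 ± 0.26, adjusted p = 0.0383).

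Since Per1 also answers to glucocorticoids and CREB, genes known to respond to either were listed. The lists were chosen with earlier results of these data known. Whether either signal had a part in the level of Per1 was not tested. Between TG and WT hearts, where Per1 was higher, 6 of 7 glucocorticoid-responsive genes were higher by limma's adjusted p, where 1.36% of all genes were, and 0 were lower even at an unadjusted p below 0.05 (list median 1.89, beside -0.07 over all genes). They included Mt2, a metallothionein (2.65 ± 0.24, adjusted p = 0.00134), Zbtb16 (2.58 ± 0.54, adjusted p = 0.035), the steroid receptor chaperone Fkbp5 (1.96 ± 0.38, adjusted p = 0.0263) and the kinase Sgk1 (1.89 ± 0.38, adjusted p = 0.0323). Of 6 CREB-responsive genes 4 were higher, and again 0 were lower at either p (median 1.84). These were Fos (4.34 ± 0.75, adjusted p = 0.0159), Nr4a1 (2.67 ± 0.38, adjusted p = 0.00786), Dusp1 (2.06 ± 0.23, adjusted p = 0.0039) and Sik1 (1.63 ± 0.34, adjusted p = 0.0339).

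In WT+MI against WT, 3 glucocorticoid-responsive genes were higher and 1 lower (median 0.89), where 18.5% of all genes were higher and 29.6% lower. Mt2 (4.50 ± 0.24, adjusted p = 9.29e-06), Fkbp5 (2.34 ± 0.38, adjusted p = 0.000936) and Errfi1 (2.13 ± 0.35, adjusted p = 0.000994) were higher and Klf9 was lower (-0.91 ± 0.31, adjusted p = 0.0344). Of the CREB-responsive genes 5 were higher (median 1.74), led by Fos (5.09 ± 0.75, adjusted p = 0.0006) and Junb (2.62 ± 0.29, adjusted p = 0.000175). For TG+MI against TG each list had 1 higher and 1 lower, where 5.07% of all genes were higher and 3.75% lower. Mt2 (1.61 ± 0.24, adjusted p = 0.00445) and Junb (1.18 ± 0.29, adjusted p = 0.032) were higher, and Tsc22d3 (-0.75 ± 0.19, adjusted p = 0.0398) and Dusp1 (-1.04 ± 0.23, adjusted p = 0.0216) lower. After infarction 0 genes of either list passed in TG+MI against WT+MI by limma's adjusted p, beside 10.5% of all genes. Of the lists, 2 genes (Klf9 and Tsc22d3) had an unadjusted p below 0.05 there.

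**Figure D5:**
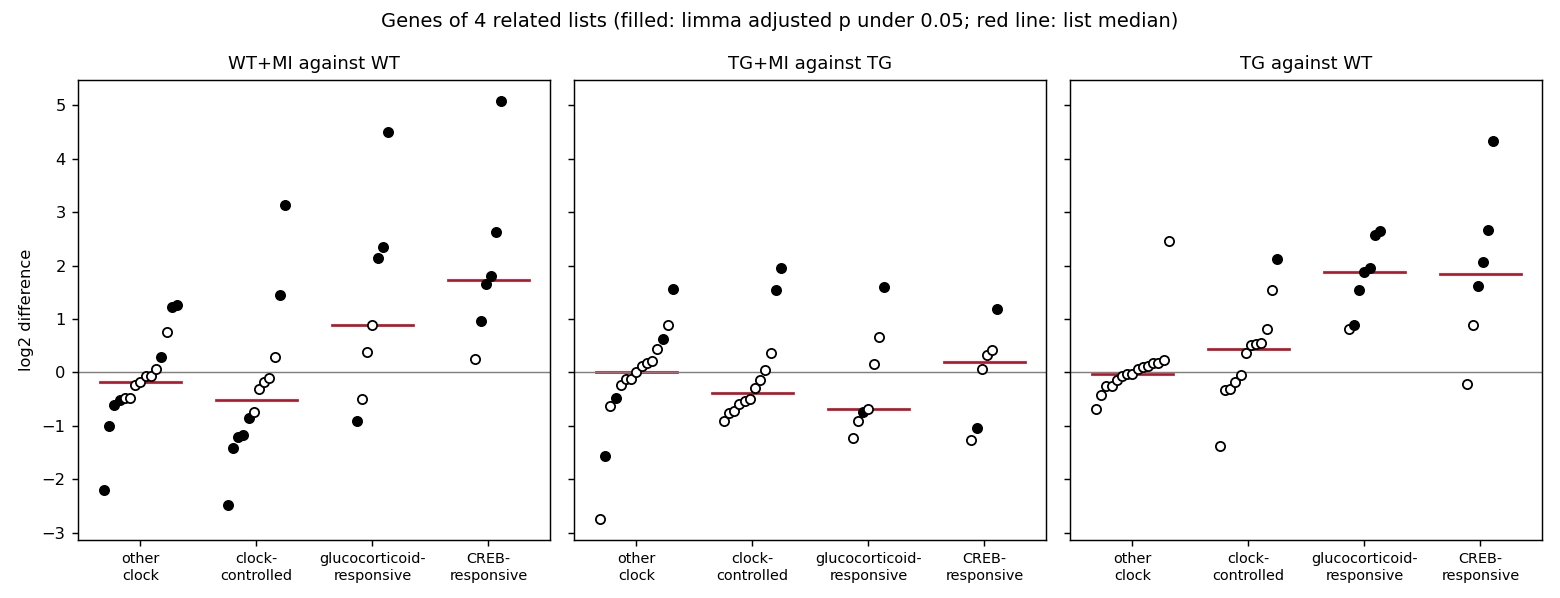
Log2 differences (y axis) of the genes of 4 related lists (x axis) in 3 comparisons; each point is a gene, filled where it passed, and lines are list medians. For TG against WT the filled points of the glucocorticoid-responsive and CREB-responsive lists all lie above 0, with medians of 1.89 and 1.84, and the list of other clock genes has none filled.

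The members were also compared by the likeness of their patterns over the 12 arrays. Likeness was the root mean square difference between 2 genes' levels after each was centred on its own mean, over all tested genes, and is a description of 12 arrays that share their groups. The gene nearest to Dbp was Per3 (0.377), and Hlf was also among its 3 nearest (0.523). Among the 3 genes nearest to Per3 were Hlf (0.268) and Tmem86a (0.338). Nr1d1 was nearest to Nfasc (0.159), Gdf1 and Plxnb3, and Nr1d2 to Prrg1 (0.166), Pdzd3 and Sorcs2. For Nr1d1, Nr1d2 ranked 32 of the genes compared.

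Per1 lay nearest, among named genes, to Ddit4 (0.355) and Sgk1 (0.371), and Per2 ranked 28 (0.567). Per2 was nearest to Timp3 (0.36), Adh1 and Slc4a8. Arntl had Rrad (0.391) and NEAT1 (0.392) among its 3 nearest. It lay 2.06 from Dbp and 1.71 from Per3, in a measure that is not scaled to a gene's range. Its differences from Tef (1.27), Nr1d1 (1.35) and Nr1d2 (1.37) were no larger than those from Per2 (1.40) and Per1 (1.43). Distance from Arntl thus did not set Tef, Nr1d1 and Nr1d2 apart from Per1 and Per2, whereas Dbp and Per3 lay farther away. The nearest genes of Dbp, Per3, Per1 and Arntl also included transcripts that the files name by accession only.

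Some markers of other cells differed with infarction and with genotype, and their part in the clock gene differences was not tested. In bulk tissue, fewer cells of a type and less RNA per cell cannot be told apart. The summed level of 7 ventricular cardiomyocyte markers, on the linear scale relative to the 75th percentile, was 1548 to 2044 in TG+MI, 1521 to 2120 in WT+MI, 1467 to 1854 in TG and 1951 to 2586 in WT hearts. Of these 7, 2 (Ryr2 and Tnni3) were lower in WT+MI against WT, where 29.6% of all genes were, a share close to theirs. In the other comparisons 0 passed limma's adjusted threshold, while 3 (Myh6, Myl2 and Tnnt2) were lower in TG against WT at an unadjusted p below 0.05. The sum of 4 atrial markers was 52.2 to 219 in TG+MI, 163 to 465 in WT+MI, 327 to 1039 in TG and 37.8 to 38.9 in WT hearts. Nppa had the highest mean of the 4 in each group, with 7.68 in WT+MI hearts on the log2 scale. In TG hearts the means of Myl4, Myl7 and Sln were 7.67, 6.79 and 6.38. WT hearts had 0.76, -2.79 and -3.76, with Myl7 and Sln well above background on 2 of 3 WT arrays. Of the 4, 2 passed as higher in TG against WT, where 1.36% of all genes were. The highest WT+MI levels of Myl4, Myl7 and Sln were 6.61, 6.14 and 5.57, and the highest WT+MI sum was that of WT+MI 1. Myl7 and Sln were each well above background on 1 of 3 WT+MI arrays, so the WT+MI sums do not show all 4 markers present in each heart.

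Of 5 neutrophil markers 3 were higher in each infarction comparison. Of all genes, 18.5% were higher in WT+MI against WT and 5.07% in TG+MI against TG. The sum of the 5 markers was 101 to 111 in TG+MI, 211 to 338 in WT+MI, 80.6 to 86.7 in TG and 97.1 to 109 in WT hearts. Csf3r, the brightest of them outside WT+MI hearts, averaged between 6.37 and 6.69 on the log2 scale in every group and weighs heavily in these sums. S100a9 averaged 4.10 in TG+MI, 6.83 in WT+MI, -0.10 in TG and 1.99 in WT hearts. The neutrophil receptor Cxcr2 was not well above background on any TG or WT array and was so on all infarcted ones, so it passed the filter through the infarcted hearts alone. All 3 smooth muscle markers were higher in TG against WT, where 1.36% of all genes were. They were lower in TG+MI against TG, where 3.75% of all genes were. Their sums were 7.27 to 11.3 in TG+MI, 9.4 to 13.4 in WT+MI, 14 to 65.6 in TG and 5.34 to 7.49 in WT hearts. The adipocyte markers summed to 4.66 to 85.1 in TG hearts and 0.418 to 2.33 in WT hearts. In TG against WT 0 of 4 tested passed limma's adjusted threshold, where 2.5% of all genes did, and 3 had an unadjusted p below 0.05. The sums of the macrophage markers were 12.9 to 25.7 in TG+MI, 25.7 to 35.8 in WT+MI, 26.2 to 29.6 in TG and 19 to 23.9 in WT hearts. Fibroblast markers summed to 111 to 141 in TG+MI, 82.7 to 112 in WT+MI, 176 to 213 in TG and 143 to 163 in WT hearts. Endothelial markers summed to 20.2 to 26 in TG+MI, 20.6 to 23.8 in WT+MI, 20.3 to 25.6 in TG and 32.4 to 34.3 in WT hearts. The erythroid sums were 267 to 453 in TG+MI, 332 to 413 in WT+MI, 205 to 366 in TG and 467 to 770 in WT hearts, and those of lymphocyte markers were at most 0.731 on all arrays.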

How the data were processed

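RNA of 12 mouse heart samples was labelled with Cy3 and hybridised to Agilent arrays, per the labels. Per the file headers, Agilent Feature Extraction 12.0.3.1 gave each spot's intensity and took off its background, and the linear processed signal was deposited. The authors also deposited a value table on a log2 scale; its column medians were 4.21 to 4.22, each column ranked the probes as its own array did, and its centring is unstated. Limma appears in the submitters' processing notes without version or role.

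From the deposited intensity, log2 values minus each array's 75th percentile were computed, outlier spots were left out (49 probes were lost) and spots of a probe averaged. The brightest probe stood for a gene. Names were updated through RefSeq by accession for 32966 probes, by symbol for 10218 and by synonym for 520; 12852 kept the files' name. A gene was tested where some group had its probe well above background in all 3 hearts, which left 19761 of 36981. Tests used limma 3.58.1 (lmFit and eBayes, a group-means model over 12 arrays) in R 4.3.3 with the package data.table (version 1.17.8) and Benjamini-Hochberg adjustment at 0.05. The fit was tested on simulated data.

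The members and gene lists were chosen with earlier results of these data known. All members are named; of each list, up to 4 genes with the largest differences among those that passed; and the 3 genes nearest in pattern to each member whose levels ranged over at least 2. Slide was fitted as a block and within slides. Quantile normalization, the value table, normexp background (offset 50), no filter, the second brightest probe, the compared groups alone and leaving out each array were alternatives. Separate probes were compared after the data were seen.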

Additional observations from a re-analysis of the deposited data

Results flagged for a closer look

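The infarction difference of TG hearts differed from that of WT hearts, by limma's interaction test over all genes, for 1 clock gene and for 6 genes of the related lists. In that test 7.93% of all genes passed. For Arntl the TG difference exceeded the WT difference by 1.52 ± 0.33 on the log2 scale (adjusted p = 0.037), with all 3 TG+MI hearts above all TG hearts. Bdh1, a ketone enzyme, gave 2.28 ± 0.53 (adjusted p = 0.0401). The other 5 had negative values, which means a smaller rise or a fall in TG hearts: Fos -4.77 ± 1.06 (adjusted p = 0.0376), Nr4a1 -2.93 ± 0.53 (adjusted p = 0.0265), Mt2 -2.89 ± 0.34 (adjusted p = 0.00994), Dusp1 -2.0 ± 0.33 (adjusted p = 0.0228) and Errfi1 -1.97 ± 0.50 (adjusted p = 0.0436). With slide as a block 0 of these 7 genes passed, with adjusted p from 0.105 (Mt2) to 0.25 (Bdh1), and Arntl was 1.16 (adjusted p = 0.241). Without the filter on dim probes Mt2 passed (adjusted p = 0.0325) and the other 6 did not.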

How the results depend on the processing

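The lower levels of Dbp, Per3, Nr1d1 and Nr1d2 in WT+MI against WT passed under all alternatives, and Tef under all but leaving out WT+MI 1 (adjusted p = 0.0524). The number of members that passed there was 4 to 7 over all alternatives, and Per1 was lost with slide as a block and without the filter. For TG+MI against TG, 5 passed; 0 passed with slide as a block (5 at an unadjusted p below 0.05) or on slide 2 alone (4 unadjusted; both rest on TG 3 alone), 3 with the compared groups alone (Nr1d1 and Per3 were lost), and 4 to 7 when an array was left out. For TG against WT, 2 passed; 1 passed with normexp, the second brightest probe, slide as a block and slide 1 alone, 0 without the filter (3 unadjusted), 2 with the compared groups alone (Per1 and Per2, with Arntl lost), and 0 to 3 when an array was left out. The interaction had 1 member; 0 passed without the filter, with the second brightest probe and with slide as a block (2 unadjusted in each), and 0 to 1 when an array was left out. Between TG+MI and WT+MI hearts, 0 passed (1 unadjusted), and 0 to 1 (Nr1d2, without WT+MI 3) when an array was left out. The cause of these changes was not tested.

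Across groups, deviations from group means correlated from -0.258 to 0.116 in 18 pairs of samples with the same replicate number. In 36 pairs with different numbers they correlated from -0.181 to 0.253. These values showed no pairing by replicate number but cannot exclude one. With the replicate block, 5 members passed in WT+MI against WT (Per1 was lost), 5 in TG+MI against TG, and 0 in TG against WT (3 unadjusted), in the interaction (2) and in TG+MI against WT+MI (3).

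Values that changed sign had not passed. In WT+MI against WT the second probe gave 0.047 for Clock and -0.50 for Per2 (a probe not well above background on any WT+MI array), and the third Clock probe 0.68, which passed; leaving out an array gave -0.11 to 0.023 for Clock and -0.15 to 0.36 for Per2. Between TG and WT hearts, Per3 was 0.0022 with quantile normalization, 0.00058 in the authors' value table, 0.097 with normexp, 0.15 with its second probe and 0.055 with slide as a block or on slide 1 alone, where Clock was 0.074. Leaving out an array there gave -0.15 to 0.074 for Clock, -0.069 to 0.23 for Nr1d1, -0.0022 to 0.14 for Nr1d2 and -0.090 to 0.12 for Per3. For TG+MI against WT+MI, Clock was -0.027 with its second probe and Arntl -0.11 with slide as a block; leaving out an array gave -0.26 to 0.72 for Per1 and -0.38 to 1.04 for Per2. In the interaction Per2 was 0.029 with its second probe, and leaving out an array gave -0.11 to 0.71 for Tef. TG+MI against WT+MI could not be fitted within a slide.

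Counts over all genes also moved. For TG+MI against TG, 1743 genes passed, against 122 with slide as a block, 652 with the compared groups alone and 931 without the filter. Between TG and WT hearts 494 passed, against 202 without the filter, 317 with slide as a block, 916 with the compared groups alone and 321 with the replicate block. Comparing TG+MI with WT+MI, 2069 passed, against 17 without the filter, 0 with slide as a block and 1 with the compared groups alone. The median over all genes in WT+MI against WT was -0.15 as reported and -0.07 with normexp.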

Other observations

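Ciart, a clock repressor that did not pass in any comparison and was singled out after its values were seen, spanned a wide range within groups. It stood at -5.75, -4.31 and -0.97 in TG+MI hearts, -2.64, -3.82 and -4.44 in WT+MI hearts, -1.42, -0.10 and -1.29 in TG hearts, and -2.83, -4.66 and -2.73 in WT hearts. TG+MI 3 was again the highest of its group, as it was for Per1 and Per2. Its probe was well above background on 2 of 3 TG+MI, 1 of 3 WT+MI, 3 of 3 TG and 2 of 3 WT arrays, so several of these values are not well above background. The difference in TG against WT was 2.47 ± 1.05 (adjusted p = 0.246).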
